A study of Rattus norvegicus with 6 samples.

Results

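The expression of 10 matricellular and hyaluronan genes was examined in rat myocardium after coronary ligation: Thbs1, Tnc, Spp1, Postn, Sparc, Fn1, Has1, Has2, Cd44 and Lox. They were picked by gene symbol, and each matched 1 of the 32623 genes in the table. RNA was sequenced from myocardium, with 3 samples per group. The groups were sham and 30 min of ischemia, in which the left anterior descending coronary artery was tied around a tube. The rats, which the labels give as wild-type males, were anesthetized, ventilated and opened by left thoracotomy. The labels describe no ligation for the sham rats, although their titles also carry the time of 30 min. Strain, age, the part of the heart that was taken and whether animals were pooled are not given in the sources used here. The question was which of these matrix genes differed between ischemic and sham myocardium, and in which samples.

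Matricellular proteins are secreted into the matrix but do not form its fibres. They bind integrins, syndecans, collagens and growth factors, and they are known for low levels in the healthy adult heart and for a return during injury and repair. Hyaluronan is a large sugar polymer that is made at the cell membrane by the Has enzymes. Cd44 is its main cell surface receptor, and Tnfaip6, Ptx3 and versican (Vcan) organise it into a matrix. Lox oxidises lysines of collagen and elastin, the step that starts their cross-linking.

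Total counts per sample ranged from 68529126 to 79591989. Cardiomyocyte transcripts were abundant in each library. The summed FPKM of 7 cardiomyocyte markers ran from 24124 to 33107 in sham and, without overlap, from 8733 to 17365 in ischemia, and the groups overlapped without the most abundant of them, Actc1. FPKM is the fragment count scaled to gene length and library size. Some libraries stood apart in ways the groups did not explain. The summed FPKM of 4 atrial markers reached 48341 and 39203 in sham replicates 1 and 3 but 214.9 in sham replicate 2, against 9610, 2078 and 1279 in ischemia replicates 1 to 3. The 48 Y-linked genes received 161 counts in sham replicate 1 and from 3218 to 8970 elsewhere, and all rats carry the label male. Markers of lung epithelium summed to 410.6 FPKM in ischemia replicate 1 and 15.1 in sham replicate 3, and to at most 0.285 in the other libraries.

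Of the 10 genes, 4 rose in ischemia at an adjusted p under 0.05 with the edgeR quasi-likelihood test: Spp1, Thbs1, Tnc and Fn1. Over all 13964 tested genes 5.18% were called higher and 1.53% lower. None of the 10 genes was called lower. In all, 8 of the 10 genes had an unadjusted p under 0.05, against 32.4% of the tested genes. The median log2 fold change was 2.48 over the 10 genes and -0.0015 over all tested genes. The median of the 10 was 3.20 without sham replicate 3 and 2.08 without ischemia replicate 2. Of the 10 genes 9 had a positive log2 fold change, as did 49.9% of the tested genes, and Sparc was the exception. FPKM in ischemia lay above every sham sample for 7 of the 10 genes, against 23.6% of the tested genes. For none of them did it lie below, against 15.0%. All 10 genes passed the expression filter, a mean FPKM of at least 0.5. Has2 passed it only through its ischemia samples, and the 10 genes were chosen with earlier results of these data known. These counts and medians are therefore descriptions.

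**Figure D1:**
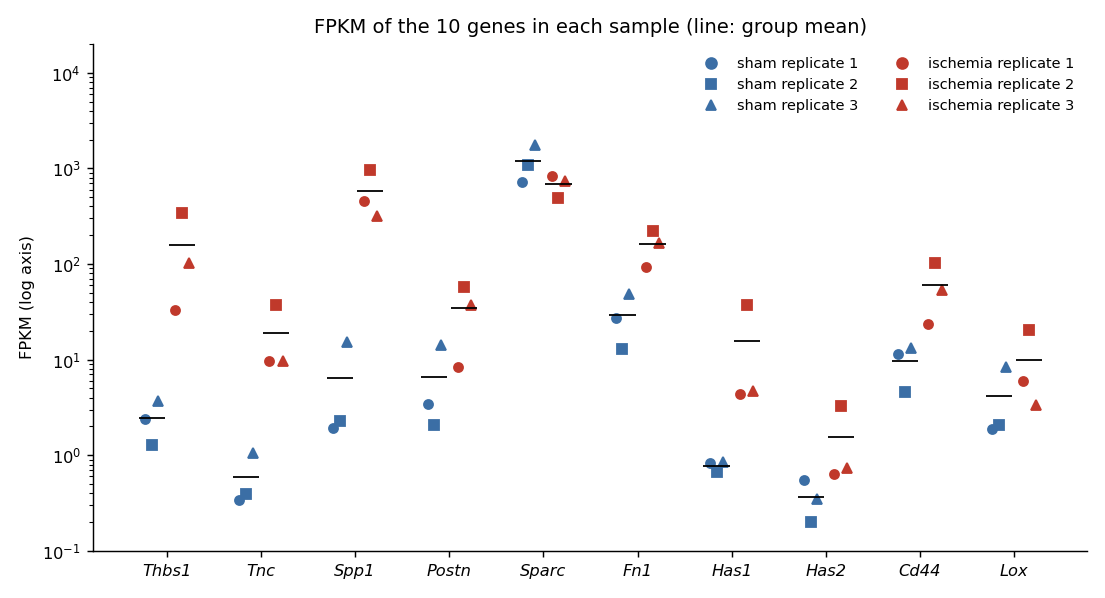
FPKM on a log axis of each of the 10 genes in the 3 sham samples (blue) and the 3 ischemia samples (red), with a symbol per replicate and a line at the group mean. The groups do not overlap for Thbs1, Tnc, Spp1, Fn1, Has1, Has2 and Cd44, and ischemia replicate 2 is the highest ischemia sample for each gene but Sparc.

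**Figure D2:**
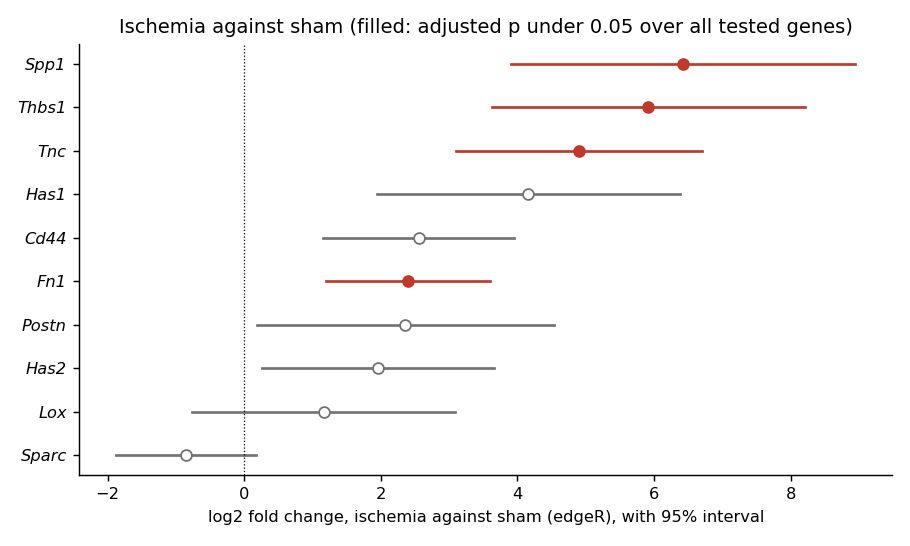
Log2 fold change of ischemia against sham from edgeR for each of the 10 genes, with 95% intervals as bars and filled points for an adjusted p under 0.05. Spp1 has the highest value (6.43), Sparc is the only one below 0, and the intervals of Sparc and Lox cross 0.

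Spp1 encodes osteopontin, a secreted integrin ligand that macrophages produce in injured tissue. It occupies positions 6673686 to 6679901 of chromosome 14 (minus strand) in the deposited table, whose genome build is not given in the sources used here. The 3 sham samples, in the order of their replicate numbers, had an FPKM of 1.92, 2.26 and 15.3, and the ischemia samples had 450.7, 967.8 and 317.2. The lowest ischemia sample was 20.8 times the highest sham sample. Behind these values stood counts of 223, 278 and 1683 for sham, and of 56432, 110243 and 34206 for ischemia. Spp1 thus moved from rank 6811 to rank 158 of the 13964 tested genes when they were ordered by mean FPKM. In log2 units it rose by 6.43 ± 1.05 (SE; adjusted p 0.0339 from edgeR). The fold was 86.1 with all samples and 240.2 without sham replicate 3.

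Thbs1 encodes thrombospondin 1, a matricellular glycoprotein that activates latent TGF-beta and binds Cd47. It occupies positions 109862117 to 109873466 of chromosome 3 (plus strand). FPKM was 2.40, 1.29 and 3.71 in the sham samples and 33.0, 341.5 and 102.7 in the ischemia samples. Every ischemia value exceeded the sham values by at least 8.90 times, and ischemia replicate 2 was 5.04 times the mean of the other ischemia samples. It rose by 5.92 ± 0.95 in log2 units (SE; adjusted p 0.0334 from edgeR), and its rank by mean FPKM went from 10096 to 511. The fold of 60.4 fell to 27.9 without ischemia replicate 2.

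Tnc encodes tenascin C, a large hexameric protein that loosens cell attachment and marks the border of infarcts. The gene occupies positions 79789671 to 79874671 of chromosome 5 (minus strand). Sham samples had an FPKM of 0.338, 0.394 and 1.05, and ischemia samples 9.71, 37.7 and 9.71. Ischemia replicates 1 and 3 were at the same level, and replicate 2 was 3.88 times their mean. It rose by 4.90 ± 0.75 in log2 units (SE), and its edgeR adjusted p of 0.0303 was the lowest of the 10 genes. Its fold of 29.8 was 16.3 without ischemia replicate 2.

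Fn1 encodes fibronectin, the adhesive glycoprotein of provisional matrix that is bound by Itga5 with Itgb1. It occupies positions 78900103 to 78969078 of chromosome 9 (minus strand). Unlike the former 3 genes it already ranked 2204 of the tested genes in sham myocardium, with an FPKM of 27.5, 13 and 48.1. In ischemia FPKM was 93.7, 223.5 and 165.5, so the lowest ischemia sample was 1.95 times the highest sham sample. It rose by 2.40 ± 0.50 in log2 units (SE; adjusted p 0.0458 from edgeR). Fn1 had the smallest log2 fold change of the 4 called genes, and it was the one whose call was also lost without ischemia replicate 2 (adjusted p 0.0782 from edgeR).

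The promoters of the called genes are shown because these genes rose in the same comparison. The table of RefSeq promoters held 7 of the 10 genes, and Fn1, Has2 and Lox were not matched. Each runs from 250 bases before to 50 bases after the annotated start, on the GRCr8 build, whose positions differ from those of the deposited table. Capitals mark matches to the motifs searched.
Thbs1 promoter, GRCr8 chr3:125510000-125510299, plus strand: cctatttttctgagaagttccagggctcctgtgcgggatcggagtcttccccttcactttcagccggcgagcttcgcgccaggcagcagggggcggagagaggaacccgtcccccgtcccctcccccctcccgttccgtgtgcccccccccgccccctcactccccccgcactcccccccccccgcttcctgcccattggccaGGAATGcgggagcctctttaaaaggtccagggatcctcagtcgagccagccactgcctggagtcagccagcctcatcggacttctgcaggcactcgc
Tnc promoter, GRCr8 chr5:82476082-82476381, minus strand: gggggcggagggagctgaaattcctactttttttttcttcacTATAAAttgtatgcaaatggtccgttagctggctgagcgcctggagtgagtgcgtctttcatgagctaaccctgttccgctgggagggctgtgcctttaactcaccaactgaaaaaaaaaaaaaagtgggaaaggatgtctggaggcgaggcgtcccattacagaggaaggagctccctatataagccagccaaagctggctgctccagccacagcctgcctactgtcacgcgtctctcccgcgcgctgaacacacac
Spp1 promoter, GRCr8 chr14:5619755-5620054, minus strand: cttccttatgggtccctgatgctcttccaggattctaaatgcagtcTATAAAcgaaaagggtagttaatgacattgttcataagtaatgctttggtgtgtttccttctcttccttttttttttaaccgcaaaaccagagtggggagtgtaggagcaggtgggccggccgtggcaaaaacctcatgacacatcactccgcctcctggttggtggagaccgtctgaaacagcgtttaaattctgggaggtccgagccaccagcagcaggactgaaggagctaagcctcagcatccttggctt
The motifs were TATAAA on the gene strand, and on both strands TGANTCA (bound by AP-1), GGAATG (bound by TEAD factors), the CArG box of SRF and the NF-kB site. TATAAA occurred in 3 of the 7 promoters (Tnc, Spp1 and Postn) and in 8.80% of all 33469 promoters of this length. It started 208 bases before the start of Tnc, 204 before that of Spp1 and 44 before that of Postn. GGAATG occurred in Thbs1, from 47 to 42 bases before the start, and in Sparc, against 14.2% of all promoters. TGANTCA, the CArG box and the NF-kB site occurred in 0 of the 7 windows, and in 7.33%, 1.64% and 7.51% of all promoters.

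Postn and Sparc did not pass the test. Postn encodes periostin, a matricellular protein of activated fibroblasts. Its FPKM was 3.43, 2.06 and 14.2 in sham and 8.35, 58.1 and 37.3 in ischemia. Sham replicate 3 exceeded ischemia replicate 1, so the groups overlapped. Its log2 fold change was 2.36 (95% interval 0.19 to 4.53, edgeR adjusted p 0.134), and it was 3.52 without sham replicate 3. Sparc encodes osteonectin, a collagen-binding matricellular protein. It was the most abundant of the 10 genes in sham, at 713.9, 1085 and 1777 FPKM, and had 840.3, 492.1 and 742.5 FPKM in ischemia. Its log2 fold change was -0.85 (95% interval -1.87 to 0.17, edgeR adjusted p 0.209), and its rank by mean FPKM was 61 in sham and 129 in ischemia. In ischemia the mean FPKM of Spp1 was 578.6 ± 343.6 and that of Sparc 691.6 ± 179.6 (SD, n = 3). Spp1 was below Sparc in ischemia replicates 1 and 3 (450.7 and 317.2 FPKM) and above it in replicate 2 (967.8 FPKM). In sham Spp1 was at 6.48 ± 7.61 and Sparc at 1192 ± 539 (SD, n = 3).

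The hyaluronan genes were considered next. Has1 and Has2 are membrane enzymes that polymerise hyaluronan. Has1 occupies positions 59720612 to 59732409 of chromosome 1 (minus strand). Its FPKM was 0.823, 0.671 and 0.845 in sham, the tightest of the 10 genes, and 4.39, 37.6 and 4.66 in ischemia. Every ischemia sample was at least 5.19 times the highest sham sample. The log2 fold change was 4.16 (95% interval 1.94 to 6.38), and the edgeR adjusted p of 0.0503 lay just outside the threshold. Without ischemia replicate 2 the fold dropped from 17.9 to 5.65, while the adjusted p of edgeR was 0.0234.

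Has2 remained at low levels. It had an FPKM of 0.554, 0.202 and 0.350 in sham and 0.635, 3.27 and 0.740 in ischemia, which were 69 to 177 and 219 to 1023 counts. The groups did not overlap, but the lowest ischemia sample was only 1.15 times the highest sham sample. The log2 fold change was 1.96 (95% interval 0.27 to 3.66, edgeR adjusted p 0.119), and without ischemia replicate 2 it was 0.90. Has3, the remaining synthase, did not reach the expression filter and stayed at or below 0.264 FPKM in each sample. Has1 accounted for 52.6%, 72.4% and 57.9% of the summed FPKM of the 3 synthases in sham replicates 1 to 3 and for 85.5%, 91.6% and 85.2% in ischemia. Sham samples had a mean share of 61.0 ± 10.2% and ischemia samples one of 87.4 ± 3.6% (SD, n = 3 each). The groups did not overlap, and the two-sided exact permutation p was 0.1, the smallest that 3 against 3 samples allows.

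Cd44, the hyaluronan receptor, is a membrane glycoprotein of leukocytes and many other cells that also binds osteopontin. It occupies positions 92696313 to 92783658 of chromosome 3 (minus strand). FPKM was 11.4, 4.56 and 13.4 in sham and 23.4, 103.6 and 53.6 in ischemia, without overlap. The log2 fold change was 2.56 (95% interval 1.16 to 3.96), and its edgeR adjusted p of 0.0510 also lay just outside the threshold. Without ischemia replicate 1 both Cd44 (0.0187) and Has1 (0.0238) had an edgeR adjusted p under 0.05.

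Of 20 further genes of hyaluronan metabolism and binding, 14 were tested, 3 were higher, 0 were lower and 11 did not pass, where 5.18% of all tested genes were higher and 1.53% lower. The median of the 14 log2 fold changes was 1.42, against -0.0015 over all tested genes, and it was 0.93 without ischemia replicate 2. Ptx3, a pentraxin that joins hyaluronan chains together with Tnfaip6, rose by 6.20 ± 0.67 in log2 units (SE, edgeR adjusted p 0.0248). Its FPKM was 0.543 to 0.748 in sham and 96.2, 36.8 and 23.5 in ischemia. Tnfaip6, which transfers heavy chains onto hyaluronan, rose by 4.37 ± 0.84 (SE, edgeR adjusted p 0.0408), from 1.31 to 1.60 FPKM in sham to 10.5, 77.9 and 12.98 in ischemia. Hyal2, a hyaluronidase at the cell surface, rose by 1.34 ± 0.23 (SE, edgeR adjusted p 0.0351). Vcan, the hyaluronan-binding proteoglycan, had a log2 fold change of 3.52 and an adjusted p of 0.0571 from edgeR. Enzymes that make the sugar precursors were chosen after the values were seen, and all 5 that were listed are given. Ugdh, which makes UDP-glucuronate, had 3.36 to 8.01 FPKM in sham and 18.8, 60.4 and 16.8 in ischemia, and Gfpt2 and Uap1 of the UDP-N-acetylglucosamine route did not overlap between the groups either. None of these 3 passed: the log2 fold change was 2.26 for Ugdh (edgeR adjusted p 0.0551) and 2.09 for Gfpt2 (edgeR adjusted p 0.0510), and Uap1 had an edgeR adjusted p of 0.105. Of the same routes Gfpt1 (0.09) and Ugp2 (-0.20) overlapped between the groups and did not pass either. The lymphatic hyaluronan receptor Lyve1, also chosen after its values were seen, was at 5.34 to 10.8 FPKM in sham and 6.45 to 13.3 in ischemia.

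**Figure D3:**
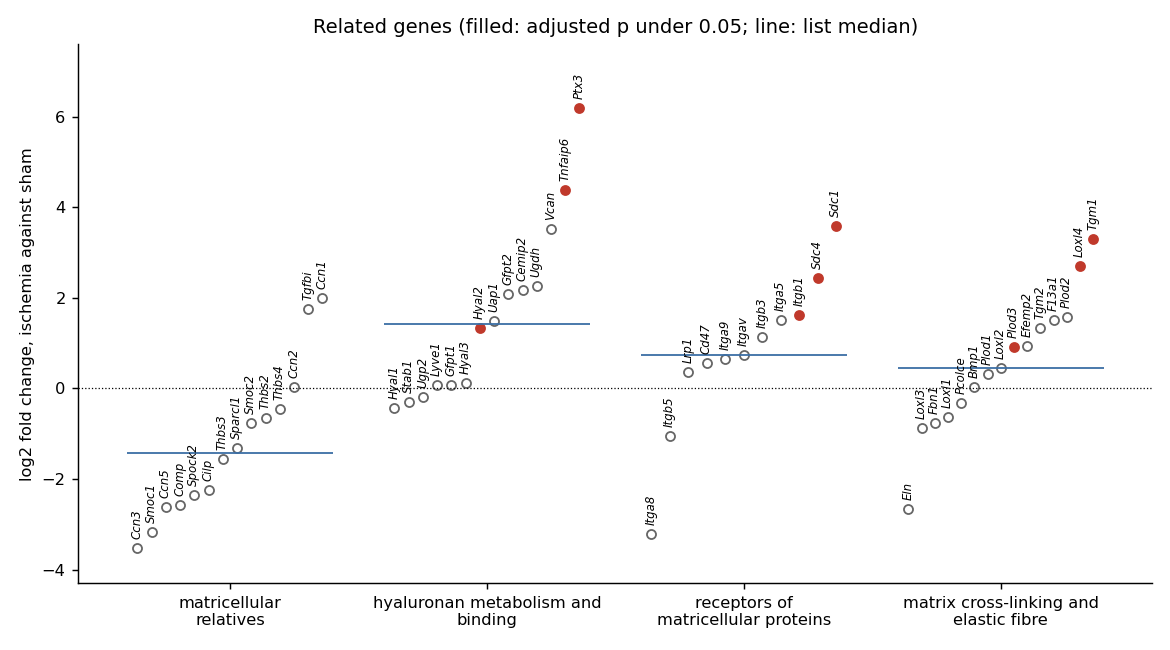
Log2 fold change of ischemia against sham for each tested gene of the 4 lists of related genes, ordered by value within a list, with filled points for an adjusted p under 0.05 and a line at the list median. The called genes lie in the hyaluronan, receptor and cross-linking lists and all are above 0, while 11 of the 14 matricellular relatives lie below 0.

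For Lox, the lysyl oxidase, sham samples had an FPKM of 1.87, 2.07 and 8.42, whereas ischemia samples had 5.95, 20.2 and 3.37. The groups overlapped, and the log2 fold change of 1.16 had a 95% interval from -0.76 to 3.09 (edgeR adjusted p 0.338). The value was 0.18 without ischemia replicate 2 and 2.10 without sham replicate 3. All 15 genes listed for matrix cross-linking and elastic fibres were tested, of which 3 were higher, 0 were lower and 12 did not pass, with a median of 0.44, beside 5.18% higher and 1.53% lower over all tested genes. That median was 0.10 without ischemia replicate 2, 0.20 without sham replicate 1 and 0.70 without ischemia replicate 1. Tgm1, a transglutaminase, rose by 3.30 ± 0.40 in log2 units (SE, edgeR adjusted p 0.0272), from 1.14 to 2.75 FPKM in sham to 20.6, 18.1 and 13.5 in ischemia. Loxl4, a relative of Lox, rose by 2.71 ± 0.56 (SE, edgeR adjusted p 0.0459), and the collagen lysyl hydroxylase Plod3 by 0.91 ± 0.16 (SE, edgeR adjusted p 0.0377). Loxl4 had a sham mean under 0.5 FPKM, so it was tested only through its ischemia samples. Loxl1, Loxl2 and Loxl3, chosen after their values were seen, had log2 fold changes of -0.62, 0.44 and -0.87 and did not pass. Eln, the gene of elastin, was uneven among sham samples, with an FPKM of 42.9, 69.3 and 627.7, and had 80.1, 11.6 and 25.0 in ischemia. Its log2 fold change was -2.65 (edgeR adjusted p 0.180), and -0.70 without sham replicate 3.

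The receptors of these proteins formed a further list. Of 15 listed receptor genes 14 were in the table and 11 were tested, of which 3 were higher, 0 were lower and 8 did not pass. The shares over all tested genes were 5.18% and 1.53%. Sdc1 and Sdc4 are syndecans, membrane proteoglycans that bind fibronectin, tenascin C and thrombospondin. Sdc1 had an FPKM of 2.56, 1.82 and 4.11 in sham and 16.2, 64.9 and 27.9 in ischemia, a log2 fold change of 3.59 ± 0.55 (SE, edgeR adjusted p 0.0303). Sdc4 rose by 2.44 ± 0.32 (SE, edgeR adjusted p 0.0272). Itgb1, the common beta chain of the fibronectin receptors, rose from 97.0, 66.8 and 115.8 to 172.7, 383.5 and 345.3 FPKM, with a log2 fold change of 1.62 ± 0.34 (SE, edgeR adjusted p 0.0478). Its partner Itga5, chosen after its values were seen, was higher in each ischemia sample but did not pass (1.51, edgeR adjusted p 0.0750). Itgb5, an integrin beta chain chosen in the same way, was lower in each ischemia sample, at 47.4, 35.9 and 55.5 FPKM in sham against 29.1, 12.4 and 27.3, and did not pass (-1.06, edgeR adjusted p 0.115). Itga8, an integrin chain that binds osteopontin and tenascin, had a log2 fold change of -3.21 (edgeR adjusted p 0.122), which rested on 13.8 FPKM in sham replicate 3 and was -0.89 without it.

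Structural relatives of the matricellular genes were listed as well. Of 20 listed relatives, 19 were in the table and 14 were tested, 0 were higher and 0 were lower, beside 5.18% and 1.53% of all tested genes. At an unadjusted p under 0.05 from edgeR there were 7 (5 lower and 2 higher), against 32.4% of all tested genes. DESeq2 called 21 of the 54 tested related genes of all lists higher and 8 lower, beside 2071 and 1742 of all 13964 tested genes. Its calls are not given by list here. FPKM was lower in every ischemia sample for 4 of the 14 (Thbs3, Sparcl1, Smoc1 and Cilp, named after their values were seen) and higher for Tgfbi, where 15.0% and 23.6% of all tested genes did not overlap in these directions. The list median was -1.43, and 11 of the 14 values were below 0, as were 50.1% of all values. Without sham replicate 3, the library with the highest fibroblast and smooth muscle sums, that median was -0.89. The largest absolute values were those of Ccn3 (-3.51), Smoc1 (-3.17) and Ccn5 (-2.62), for which edgeR gave adjusted p-values of 0.171, 0.143 and 0.195. Without sham replicate 3 their values were -1.82, -2.27 and -1.83. Smoc1, a relative of Sparc, was at 5.52, 2.25 and 15.2 FPKM in sham against 2.21, 0.209 and 0.108 in ischemia. The other thrombospondin genes, chosen after their values were seen, did not pass. Thbs2, Thbs3, Thbs4 and Comp had log2 fold changes of -0.65, -1.55, -0.45 and -2.58. Comp had 9.45 FPKM in sham replicate 3 but 0.359 and 0.0717 in sham replicates 1 and 2. Tgfbi did not pass either (1.74, edgeR adjusted p 0.0694), and Ccn1, chosen in the same way, had 38.9 FPKM in ischemia replicate 1 and overlapped with sham (edgeR adjusted p 0.0780).

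The 10 genes were not evenly distributed among the samples of a group. Ischemia replicate 2 was the highest ischemia sample for 9 of the 10 genes, and it was so for 49.3% of the tested genes. Sham replicate 3 was the highest sham sample for 9 of the 10, against 41.3% of the tested genes. Compared with the mean of the other ischemia samples, replicate 2 was 8.32 times higher for Has1, 5.04 times for Thbs1, 4.75 times for Has2 and 1.72 times for Fn1. For Sparc the ratio was 0.618. No log2 fold change of the 10 genes changed sign in any of the 6 fits that left out 1 sample, but the calls did change. When any 1 of the sham samples, or ischemia replicate 3, was left out, 0 of the 10 genes and 0 of all genes passed, although between 6 and 8 of the 10 had an unadjusted p under 0.05 from edgeR. Over all tested genes that share was 22.1%, 27.3% and 23.3% without sham replicate 1, 2 and 3, and 21.6% without ischemia replicate 3. Without ischemia replicate 2 the called genes were Spp1, Thbs1, Tnc and Has1, where 3.31% of all tested genes were higher. Without ischemia replicate 1 there were 6, with Has1 and Cd44 added, where 10.7% of all tested genes were higher. DESeq2 called 8 of the 10 higher, leaving out Sparc and Lox, and 14.8% of all tested genes.

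**Figure D4:**
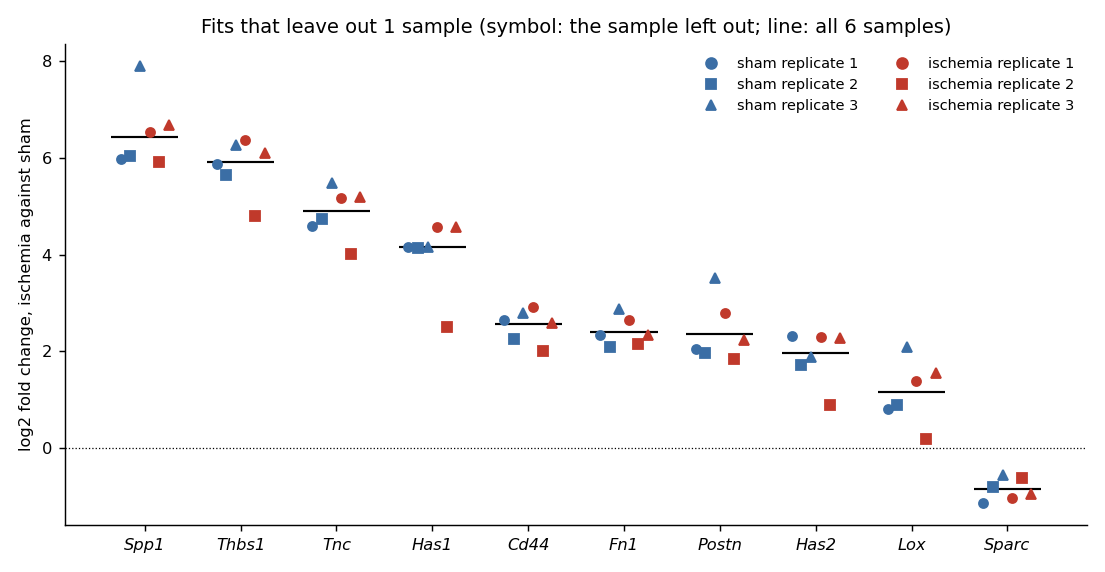
Log2 fold change of each of the 10 genes when 1 sample is left out, with the symbol naming the sample that was left out and a line at the value from all 6 samples. Leaving out ischemia replicate 2 lowers Has1 from 4.16 to 2.50, and leaving out sham replicate 3 raises Spp1 from 6.43 to 7.91, while no gene crosses 0.

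Marker genes of other cell types were measured in the same libraries, since in bulk tissue a change in the number of cells of a type and a change in RNA per cell cannot be told apart. The summed FPKM of 10 neutrophil genes was 13.9 to 30.6 in sham and 1447, 3796 and 815.4 in ischemia. Of the 9 that were tested 7 were higher, against 5.18% of all tested genes, and 8 lay above every sham sample, against 23.6%. These counts are descriptions, since 5 of the 9, 4 of the 7 called genes among them, had a sham mean under 0.5 FPKM and were tested only through ischemia. Mpo, the myeloperoxidase of neutrophil granules, went the other way without passing, at 0, 0.497 and 3.78 FPKM in sham and 0, 0.0170 and 0 in ischemia (edgeR adjusted p 0.0993). S100a9, a calcium-binding alarmin and the most abundant of them, had 4.98 to 11.0 FPKM in sham and 242.3, 2224 and 241.1 in ischemia. Retnlg was at 0 in all sham samples and at 14.1 to 30.3 FPKM in ischemia. Fpr1 was at 0 in all samples but ischemia replicate 2 (1.92 FPKM) and was not tested. Mpo, Retnlg and Fpr1 were named after their values were seen. The summed FPKM of 9 monocyte and macrophage genes was 283.2 to 453.1 in sham and 982.0, 5097 and 1723 in ischemia, with 3 of 9 genes higher, against 5.18% of all tested genes, and 4 of 9 log2 fold changes below 0. The most abundant was Lyz2, the macrophage lysozyme, at 746.1, 4747 and 1477 in ischemia and 83.5 to 172.8 in sham. Without Lyz2 the other 8 genes summed to 199.7 to 280.3 FPKM in sham and 235.9, 349.1 and 246.1 in ischemia, so the groups then overlapped. Both sums were highest in ischemia replicate 2, as were 9 of the 10 genes (all but Sparc), and their part in the result was not tested.

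**Figure D5:**
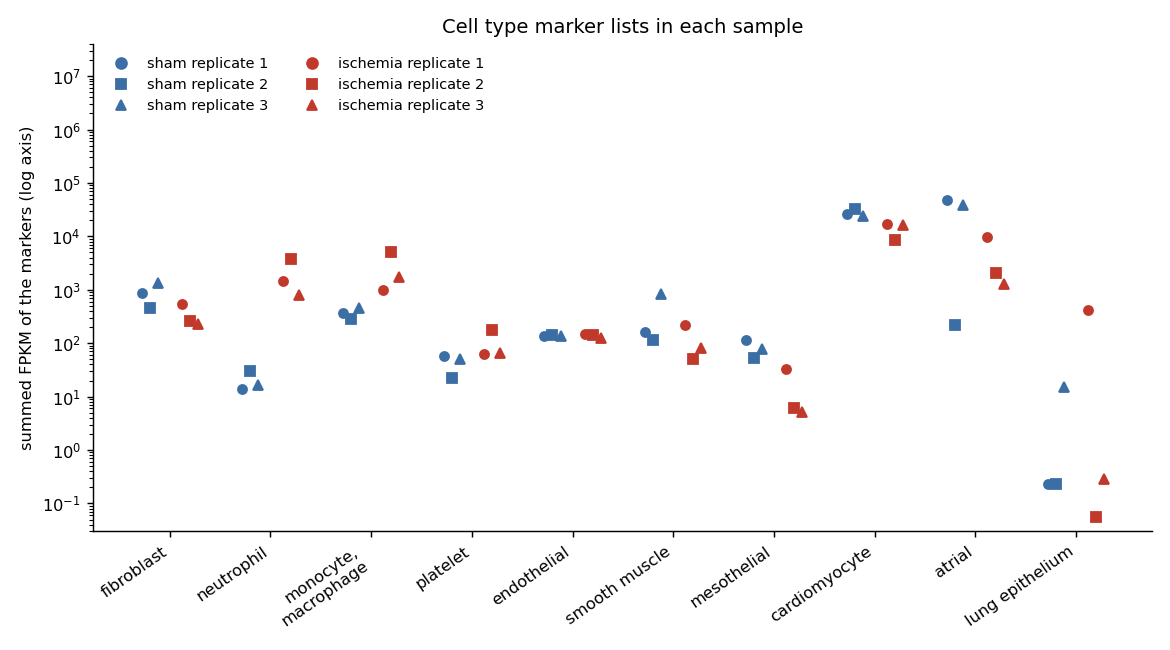
Summed FPKM on a log axis of 10 cell type marker lists in each sample, sham in blue and ischemia in red with a symbol per replicate. Neutrophil and monocyte or macrophage sums are higher in each ischemia sample than in each sham sample, the latter only with Lyz2 included, fibroblast sums overlap, and the atrial sum of sham replicate 2 lies apart from the other sham samples.

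Fibroblasts are the main known source of Postn, Fn1 and Lox in the heart. The summed FPKM of 7 fibroblast markers was 451.5 to 1340 in sham and 541.1, 260.3 and 224.8 in ischemia. Of the 7, 0 were called, where 1.53% of all tested genes were lower. The log2 fold change was below 0 for 7 of 7, where 50.1% of all were. FPKM lay below every sham sample for 3 of the 7, against 15.0% of all tested genes, and overlapped for the others. These 3 were Lum, Dpt and Col1a1, named after their values were seen. Dcn, the proteoglycan decorin and the most abundant of the 7 markers, had 160.9 to 492.4 FPKM in sham and 115.2 to 278.8 in ischemia. Sham replicate 3 had the highest sums of fibroblast (1340) and smooth muscle markers (839.4, against 50.5 to 221.0 in the other samples), and Acta2, the smooth muscle actin, was at 423.0 FPKM there. That sample was also the highest sham sample for 9 of the 10 genes, all but Has2. Mesothelial markers summed to 51.8 to 113.8 in sham and to 33.6, 6.15 and 5.11 in ischemia, with Msln (mesothelin) the most abundant. Platelet markers, which are relevant to Thbs1 because platelets store thrombospondin, summed to 22.4 to 56.5 in sham and 63.8, 173.3 and 65.3 in ischemia. Nearly all of that was Pf4, whereas Gp9, Gp1ba and Ppbp stayed at or below 0.472 FPKM in each library. Pf4 did not pass (edgeR adjusted p 0.135). Without Pf4 the other 5 genes summed to 1.64 to 3.27 FPKM in sham and 2.22, 3.11 and 1.40 in ischemia. Those sums overlapped between the groups. Itga2b and Treml1, named after their values were seen, had log2 fold changes of -0.35 and -0.08 and did not pass either. Endothelial markers summed to 135.4 to 140.1 in sham and 125.0 to 151.0 in ischemia, with Cdh5, the endothelial cadherin, the most abundant. In the cardiomyocyte list Actc1, the cardiac actin, had 10210 to 10827 FPKM in sham and 2654 to 4709 in ischemia. Nppa was the leading atrial gene, at 67.7 FPKM in sham replicate 2 and 33225 and 25111 in sham replicates 1 and 3. The leading lung gene Scgb1a1, the club cell secretoglobin, reached 394.4 FPKM in ischemia replicate 1. For none of these lists was its part in the values of the 10 genes tested.

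For each called gene, the tested gene with the most similar pattern was found as the smallest root mean square difference of log2 counts scaled to library size and centred on the mean of each gene, over the 6 samples. For Thbs1 it was Adam8 (0.24), a membrane metalloprotease of leukocytes, with 0.220 to 0.845 FPKM in sham and 8.12, 91.9 and 18.9 in ischemia. For Tnc it was the immunoglobulin receptor gene Fcgr2b (0.35), and for Fn1 the magnesium transporter gene Slc41a2 (0.16). For Spp1 the nearest was the metallothionein gene Mt2A, at a larger distance (0.71), with 1858, 1285 and 616.8 FPKM in ischemia. The patterns of Fn1 and Cd44 were the nearest pair among the 10 genes (0.31), while Sparc was at least 1.42 from each of the others. Has1, which did not pass the threshold, was nearest to Tnfaip6 (0.22), a pair chosen after its values were seen.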

How the data were processed

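Total RNA libraries had been prepared with a stranded kit. STAR and HTSeq are named in the submitters' processing notes without versions, and the genome build, annotation and strand setting are not given in the sources used here, so positions are as the deposited table lists them. The deposited table held raw whole-number counts, not normalized, and FPKM values that the authors had scaled to gene length and library size. Genes without reads carry a placeholder FPKM there and were set to 0.

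The test was run on the 13964 genes whose FPKM averaged 0.5 or more across the 6 samples. Counts were scaled by TMM and compared with the two-sided quasi-likelihood test of edgeR, ischemia against sham, without covariates. Benjamini-Hochberg adjustment covered all 13964 genes, and calls were made under 0.05. SE and 95% intervals were derived from the F statistic. Shares were compared by exact permutation. Nothing in the labels says that replicates are separate animals, so p-values measure only the spread between these samples. The 10 genes and all lists were chosen with earlier results of these data known. Named were the 10 genes, each called gene and the 3 largest absolute log2 fold changes of each related list, the most abundant gene of each marker list, and the nearest gene of each called member. Tnxb, Cd36, Col1a2, Ccr2 and Pecam1 were listed but not analysed here.

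Alternatives were 3 other scalings, DESeq2, limma on log2(FPKM + 0.1), log2(FPKM + 1) and log2(FPKM + 0.01), no filter, a mean FPKM of at least 5, the replicate number as a block, each sample left out and repeated symbols summed. The fit without both sham replicates 1 and 3 was chosen after seeing the data. The tests were also run on simulated counts that held no outlying library. That run therefore cannot vouch for calls that change when 1 sample is left out. Promoters came from RefSeq (GRCr8). Tests used edgeR 4.0.16 with R 4.3.3, limma 3.58.1 and, for DESeq2, version 1.42.0. Summaries used Python 3.11.15, and matplotlib 3.10.9 drew the plots.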

Additional observations from a re-analysis of the deposited data

How the results depend on the processing

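Each of the 10 genes kept the sign of its log2 fold change under every alternative in which it was tested, 18 for each gene and 17 for Has2, which a mean FPKM of at least 5 removed. The ranges were 5.91 to 7.91 for Spp1, 4.80 to 6.59 for Thbs1, 3.39 to 5.48 for Tnc, 2.09 to 3.31 for Fn1 and 2.50 to 4.58 for Has1. Spp1, Thbs1 and Tnc kept their call in 12 of 18 alternatives and Fn1 in 9, while Has1 gained one in 7 and Cd44 in 3. With DESeq2, 8 of the 10 genes, 21 related genes and 2071 of all genes were higher, and 0, 8 and 1742 were lower. Total-count scaling left 83 lower genes in all and no filter 93. With the replicate number as a block 0 of the 10 genes, 0 related genes and 0 of all genes passed in edgeR, with 7 of the 10 and 24.0% of all genes at an unadjusted p under 0.05 and Spp1 at 7.03 (adjusted p 0.0943). Same-numbered samples had correlations of deviations from -0.187 to -0.050, and samples with other numbers from -0.053 to 0.180. With 3 samples per group these values cannot show whether same-numbered samples shared a batch. Across the fits without 1 sample, between 0 and 6 of the 10 genes and between 0 and 18 related genes were higher, and between 0 and 7 related genes were lower. Of all genes 0 to 1490 were higher and 0 to 1115 lower. Without both sham replicates 1 and 3, 0 of the 10 genes, 0 related genes and 0 of all genes passed, with 6 of the 10 and 12.2% of all genes at an unadjusted p under 0.05 in edgeR and Spp1 at 7.66. The share of Has1 among the synthases was higher in ischemia by 26.4 percentage points from FPKM and by 36.4 from counts (exact permutation p 0.1 for both), and by 22.3 to 32.2 without 1 sample. The causes were not tested.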

Other observations

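Not every called gene of the related lists was highest in ischemia replicate 2. Ptx3 reached 96.2 FPKM in ischemia replicate 1 but 36.8 and 23.5 in the other two, and Tgm1 had 20.6 against 18.1 and 13.5. The neutrophil gene Lcn2, a secreted iron-siderophore carrier, had 952.1 FPKM in ischemia replicate 1 against 137.1 and 337.2, while S100a8, an alarmin of the same cells, had 216.4 against 1176 and 198.0. Ischemia replicate 1 also had the highest sum of lung epithelial markers (410.6 FPKM, against 15.1 in sham replicate 3 and at most 0.285 in the other libraries). Among macrophage genes, C1qa and C1qc, which encode complement chains of resident macrophages, had log2 fold changes of -0.66 and -0.42 without passing the edgeR test (adjusted p 0.0504 and 0.115), and C1qb, the remaining chain, was at -0.03. In the same list Cd68 rose by 2.17 (edgeR adjusted p 0.0408) and Cd163, a scavenger receptor of resident macrophages, by 1.40 (edgeR adjusted p 0.0445). Mrc1, the mannose receptor, was higher in each ischemia sample but did not pass (1.25, edgeR adjusted p 0.0758). Adgre1, which encodes the macrophage antigen F4/80, went the other way without passing (-1.13, edgeR adjusted p 0.135). These genes were chosen after their values were seen.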
